A study of Mus musculus with 3 samples.

Results

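Among the epithelial cells of Dox-treated cochlear explants, those with many Myc transcripts were set against those with none. A cell entered if it had at least 200 genes, 1 to 20% mitochondrial UMIs (unique molecular identifiers, which count single transcripts), at least 20000 UMIs and at least 1 UMI of Epcam, an epithelial adhesion molecule. Myc-high cells were selected on a Myc level of at least 100 CPM (counts per 1e6 UMIs of the cell), and Myc-zero cells on 0 Myc UMIs. In Dox replicate 1, 33 Myc-high and 28 Myc-zero cells were found among 157 epithelial cells. In Dox replicate 2 there were 74 and 104 among 439. Together these were 239 of 596 deep epithelial cells of the Dox libraries, and of 2395 cell barcodes in the series. Myc and Epcam chose the cells, so their own values are a description and they are left out of every count below. Mitochondrial transcripts entered the filter too, with the same limits for both classes, and their genes stay in the counts.

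All 3 libraries came from cochlear explants of mice 4 to 6 weeks old that carry rtTA, tet-on-Myc and tet-on-NICD, and hold cells dissociated with trypsin from the sensory epithelium. The Dox libraries received doxycycline at 2 µg/ml and the control sterile water, for 4 days, and each library pooled 4 cultures. The transgenes were therefore present in the control as well, and Myc and NICD were switched on together, so the effect of either alone cannot be read from these cells. The labels name no promoter for rtTA, nor do they state whether transcripts of the transgenes were counted under Myc and Notch1. Cells are not replicates: each Dox library gave 1 sum over its Myc-high cells and 1 over its Myc-zero cells, and the difference was compared over the 2 libraries. The labels do not say whether these were separate experiments, so the p-values refer only to these libraries, and say nothing of the spread over separate animals.

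MYC is a transcription factor that pairs with MAX and binds the E-box CACGTG. It is known for raising the genes that make ribosomes, amplify metabolism and drive the cell cycle. Ribosomes are assembled in the nucleolus, where proteins such as nucleolin and the box C/D small nucleolar particle process ribosomal RNA. NICD is the intracellular domain of a Notch receptor, which acts with RBPJ on genes such as Hes and Hey. In the adult mammalian cochlea the supporting cells around the hair cells do not normally divide.

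Most cells carried ample Epcam. The median Epcam level was 1102 and 915 CPM in the Myc-high and Myc-zero cells of replicate 1, and 1107 and 930 CPM in those of replicate 2. After every cell was reduced at random to 20000 UMIs (thinning), the summed markers of macrophages and blood had a median of 0 UMIs in all 4 classes. Summed markers of fibroblasts, glia, blood, vessels, melanocytes and neurons came to a median of 9 and 13 UMIs per cell in replicate 1 (Myc-high, Myc-zero), and of 9.5 and 10 in replicate 2. The markers of 1 Myc-zero cell of replicate 1 went against the label: it had 1 Epcam UMI (30.8 CPM) and 54 UMIs of these markers, 38 of them of pericytes and endothelium. At least 3 Epcam UMIs with fewer than 10 UMIs of the other types, after thinning, left 17 of 33 Myc-high and 8 of 28 Myc-zero cells in replicate 1, and 37 of 74 and 41 of 104 in replicate 2. On these clear epithelial cells 0 genes were called higher and 2 lower. None of the macrophage or melanocyte and neuron markers passed the low-count filter, and 3 of 16 hair cell markers did. Depth differed between the classes in opposite directions: median UMIs were 61039 (Myc-high) and 40933 (Myc-zero) in replicate 1, but 35175.5 and 39384 in replicate 2. The median mitochondrial share was 4.30% and 4.85% in replicate 1 and 4.20% and 4.57% in replicate 2, lower in the Myc-high cells of both. The libraries share cell barcodes: 68 between the Dox libraries, 101 between control and replicate 1, and 92 between control and replicate 2. In none was the shared barcode deep in both. Of the 239 cells, 11 carried such a barcode, 10 of them in replicate 1, each with at least 142 times the UMIs of its partner. Among the 31 control epithelial cells, 24 carried one.

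**Figure D1:**
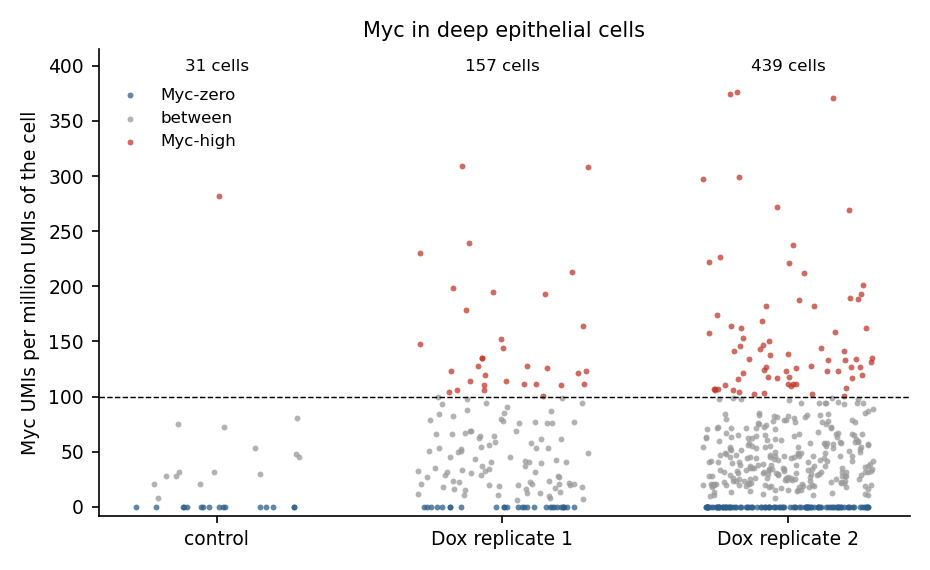
Myc level in CPM of each deep epithelial cell (vertical axis) in control and both Dox libraries, 1 point per cell, with the 100 CPM threshold dashed. Myc falls off without a gap at the threshold in the Dox libraries, and 1 of 31 control cells lies above it.

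Myc-high cells made up 21.0% of the epithelial cells of replicate 1 (95% exact binomial interval 14.9 to 28.2%), and 16.9% of those of replicate 2 (13.5 to 20.7%). In the control it was 1 of 31 cells, 3.23% (0.0816 to 16.7%), and the markers of that cell went against the epithelial label: it had 1 Epcam UMI, and 75 fibroblast and 28 pericyte and endothelium UMIs after thinning. The Myc-zero share was 17.8% (12.2 to 24.7%), 23.7% (19.8 to 27.95%) and 51.6% (33.1 to 69.8%) in replicate 1, replicate 2 and control. The intervals cover counting error only. Among deep cells without an Epcam UMI, the share at 100 CPM or more was 30.4% in replicate 1 and 14.5% in replicate 2. In the control it was 16.7%, 9 of 54 such cells. The classes are ranges of a continuous distribution: the lowest Myc-high cells had 100.4 and 100.6 CPM and the highest cells just outside 99.9 and 98.8 CPM. Within 20 CPM above the threshold lay 12 of 33 Myc-high cells in replicate 1 and 22 of 74 in replicate 2. The median Myc level of Myc-high cells was 128 CPM in replicate 1 and 134 CPM in replicate 2, with maxima of 309 and 376 CPM.

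To read Myc in UMIs that did not choose the cells, each cell's UMIs were divided at random into 2 equal parts, cells were grouped in the first and Myc was read in the second. The second part held 110 CPM in Myc-high and 29.3 CPM in Myc-zero cells of replicate 1, a 3.76-fold difference. In replicate 2 it held 101 and 30.2 CPM, a 3.35-fold difference. With another random division the ratios were 4.63 and 2.82. Cells without a Myc UMI in the first part still held Myc transcripts: 59.6% and 59.1% of them had 0 in the second part, against 14.3% and 14.5% of the Myc-high cells. These were 47 and 176 cells, a wider set than the Myc-zero cells, which had 0 in all their UMIs. The mean over the 31 control epithelial cells, after thinning, was 29.0 CPM. It covers every Myc class, so it is not comparable with cells chosen for 0 Myc in the first part. The control cell above the threshold gave 4 of its Myc UMIs. A Myc-zero cell is one without a detected Myc UMI, not one shown to lack Myc.

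Over 8873 genes tested, edgeR's quasi-likelihood test with the library as a block called 83 higher in Myc-high cells (0.935% of the genes tested) and 87 lower (0.981%) at an adjusted p of 0.05 or less. Before adjustment 917 had a p of 0.05 or less. The fit had 4 sums and 1 residual degree of freedom. The counts moved strongly: another random thinning called 5 higher and 15 lower (19 of these 20 among the 170), the fit without the library block 2 and 3, and DESeq2 1 and 1. Leaving out the 11 cells with shared barcodes gave 13 and 17. Total count scaling turned the balance to 120 higher and 54 lower. In 166 of the 170 called genes both libraries agreed in direction. Of all 8873 genes tested, 2366 were higher in both and 2533 lower in both. In 154 called genes the sign was the same in every one of the alternatives that tested them, but 24 were called in 10 or more of 18. The genes were called over these same 2 libraries, and the alternatives reuse their cells, so neither agreement is independent support. Beside each gene below stands the number of alternatives that called it. Gene positions are on GRCm38. Values per library are CPM of the thinned sums scaled by TMM (trimmed mean of M values), given as Myc-high then Myc-zero.

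The higher and lower genes differed in how many cells carried them. Of the 83 higher genes, 0 had 50% or more of a Myc-high sum from 1 cell. Of the 87 lower genes, 14 had 50% or more of a Myc-zero sum from 1 cell. With the highest cell of each sum removed, 82 of 83 higher and 79 of 87 lower genes kept their direction in both libraries.

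**Figure D2:**
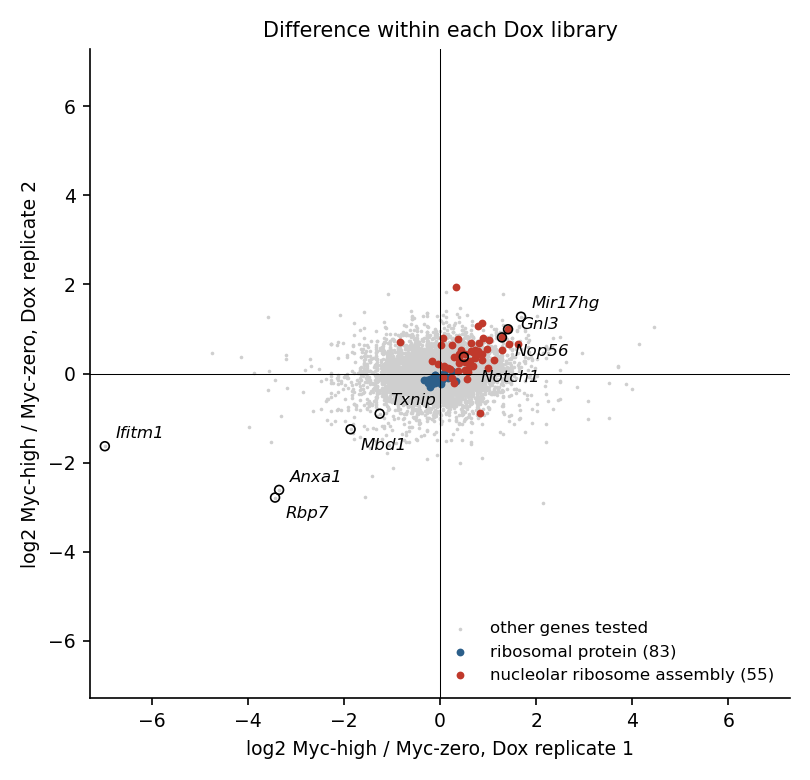
Log2 ratio of Myc-high to Myc-zero cells within Dox replicate 1 (horizontal) and within Dox replicate 2 (vertical), 1 point per gene tested, with the nucleolar ribosome assembly list in red, the ribosomal protein list in blue and 9 named genes circled. The red points lie mostly above 0 in both libraries and the blue points just below 0 in both.

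The clearest group was the nucleolar machinery that builds ribosomes. Of 55 listed genes, all tested, 13 were higher, none was called lower, and 47 were higher in both libraries with none lower in both. Their median log2 ratio was 0.48 (0.57 in replicate 1 and 0.38 in replicate 2), against -0.0075 over all genes tested. Of all 8873 genes tested, 2366 were higher in both libraries and 2533 lower in both. Such counts for this list and those below are to be read beside these. Summed over the list, the thinned sums of replicate 1 held 12276 CPM in Myc-high and 7934 CPM in Myc-zero cells, a ratio of 1.55. In replicate 2 they held 11664 and 9217 CPM, a ratio of 1.27. A median Myc-high cell had 253 UMIs of the list in 20000 in replicate 1 and 232 in replicate 2, against 154.5 and 175.5 in Myc-zero cells. Cells of the 2 classes overlapped widely, from 103 to 363 UMIs in Myc-high and 40 to 358 in Myc-zero cells of replicate 1. The control epithelial cells held 3185 CPM, below both Myc-zero classes. They were 31 cells, and their summed supporting cell markers differed too, with 7226 CPM against 3020 and 2213 CPM in Myc-zero cells of replicates 1 and 2. The part of such differences in the control levels here and below was not tested.

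Gnl3 (chr14:31012433-31019152), nucleostemin, a nucleolar GTPase of proliferating cells, had the smallest p of the list. It was at 374 and 140 CPM in replicate 1 and at 418 and 209 CPM in replicate 2. The log2 ratio was 1.15 (SE 0.13, adjusted p 2.46e-14), 2.22-fold, and 15 of 18 alternatives called it. Both Myc-high values lay above both Myc-zero values, and a Gnl3 UMI was found in 33 of 33 and 73 of 74 Myc-high cells, against 23 of 28 and 90 of 104 Myc-zero cells. Nop56 (chr2:130274430-130279313), a core protein of box C/D particles, was at 356 and 145 CPM and at 315 and 179 CPM, with a log2 ratio of 0.99 (SE 0.14, adjusted p 1.03e-09), called in 14 of 18. Ddx21 (chr10:62580251-62602281), an RNA helicase of rRNA transcription and processing, was at 324 and 119 CPM and at 257 and 163 CPM (log2 ratio 0.95, SE 0.15, adjusted p 6.76e-08, 11 of 18). Ncl (chr1:86344719-86359400), nucleolin, the most abundant of the 4, was at 2261 and 1372 CPM and at 2052 and 1623 CPM (log2 ratio 0.52, SE 0.075, adjusted p 2.69e-09, 12 of 18). For each of these 4 genes both Myc-high sums lay above both Myc-zero sums. The genes were named by smallest p from the same sums, so this separation is no added support. In the control cells the same genes were at 67.7 (Gnl3), 62.9 (Nop56), 90.3 (Ddx21) and 527 (Ncl) CPM, thinned and not TMM-scaled.

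The E-box that MYC binds was looked for in RefSeq windows from 250 bases before to 50 after each annotated start (GRCm38.p6), since these genes move together. CACGTG reads the same on both strands, and a gene counted if any of its windows held it. It was in 880 of 7028 tested genes with a window (12.5%), in 16 of 71 genes called higher (22.5%) and in 5 of 57 called lower (8.77%). Of the nucleolar list, 11 of 49 with a window held it (22.4%). Among the list's genes not called, 9 of 37 with a window held it (24.3%). Of its 13 called genes 12 had a window and 2 held it (16.7%), Tsr1 and Wdr43. Both are shown with Gnl3 and Nop56, the list's smallest p-values, from 250 bases before the start to the first 30 after it, 280 bases each, with CACGTG in capitals. Wdr43 was singled out after its values were seen. The windows are chr11:74897830-74898109 (Tsr1, plus strand), chr17:71615965-71616244 (Wdr43, plus strand), chr14:31019102-31019381 (Gnl3, minus strand) and chr2:130274162-130274441 (Nop56, plus strand).
Tsr1: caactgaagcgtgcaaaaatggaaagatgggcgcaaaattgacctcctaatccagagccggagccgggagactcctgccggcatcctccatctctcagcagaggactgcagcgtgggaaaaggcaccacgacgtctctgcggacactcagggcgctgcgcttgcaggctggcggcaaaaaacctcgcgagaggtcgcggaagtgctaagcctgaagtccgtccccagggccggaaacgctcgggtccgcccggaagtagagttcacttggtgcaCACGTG
Wdr43: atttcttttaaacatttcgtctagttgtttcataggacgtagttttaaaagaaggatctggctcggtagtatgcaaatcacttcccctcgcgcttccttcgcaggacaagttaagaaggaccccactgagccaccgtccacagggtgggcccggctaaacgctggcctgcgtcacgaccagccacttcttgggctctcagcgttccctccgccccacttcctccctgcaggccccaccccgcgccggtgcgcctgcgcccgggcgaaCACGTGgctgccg
Gnl3: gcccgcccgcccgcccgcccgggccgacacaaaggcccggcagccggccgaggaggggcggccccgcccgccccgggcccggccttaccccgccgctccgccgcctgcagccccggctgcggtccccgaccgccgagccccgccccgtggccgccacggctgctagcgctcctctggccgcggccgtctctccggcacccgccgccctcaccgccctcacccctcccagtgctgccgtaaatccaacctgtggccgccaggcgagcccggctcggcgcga
Nop56: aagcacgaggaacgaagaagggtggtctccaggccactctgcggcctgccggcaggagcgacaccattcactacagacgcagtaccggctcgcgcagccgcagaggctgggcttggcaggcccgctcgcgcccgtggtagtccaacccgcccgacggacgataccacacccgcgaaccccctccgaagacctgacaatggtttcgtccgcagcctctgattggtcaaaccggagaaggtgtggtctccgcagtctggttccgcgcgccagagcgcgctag
In Tsr1 and Wdr43 the motif lies in the first 30 transcribed bases, beginning at base 25 and base 18 from the start. No match says only that these letters are not in this window.

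Tsr1, which acts late in maturation of the small ribosomal subunit, was at 64.5 and 36.7 CPM in replicate 1 and 71.2 and 33.2 CPM in replicate 2 (log2 ratio 1.01, SE 0.24, adjusted p 0.00412, called in 8 of 18). Wdr43, of the small subunit processome, was at 213 and 136 CPM and at 215 and 152 CPM (log2 ratio 0.56, SE 0.15, adjusted p 0.0257, 7 of 18). Both were higher in the Myc-high cells of each library.

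The list's direction held in each of the 18 alternatives, with medians between 0.22 and 0.68, though its called genes ranged widely. Among cells without an Mki67 or Top2a UMI, which leaves 12 and 30 Myc-high and 15 and 42 Myc-zero cells, the median was 0.68, with summed ratios of 1.44 and 1.45 in replicates 1 and 2. Pairing cells within library and cluster gave 0.38, with ratios of 1.33 and 1.29. Both settings condition on cell cycle genes and leave fewer cells. Without the shared barcodes it was 0.48 and 7 genes were called, and another thinning gave 0.44 and 3. Clear epithelial cells gave 0.31 and 0 called, and the fit without the library block 0.47 and 2. Under total count scaling 19 were called, a scaling that moves the median of all genes to 0.051.

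**Figure D3:**
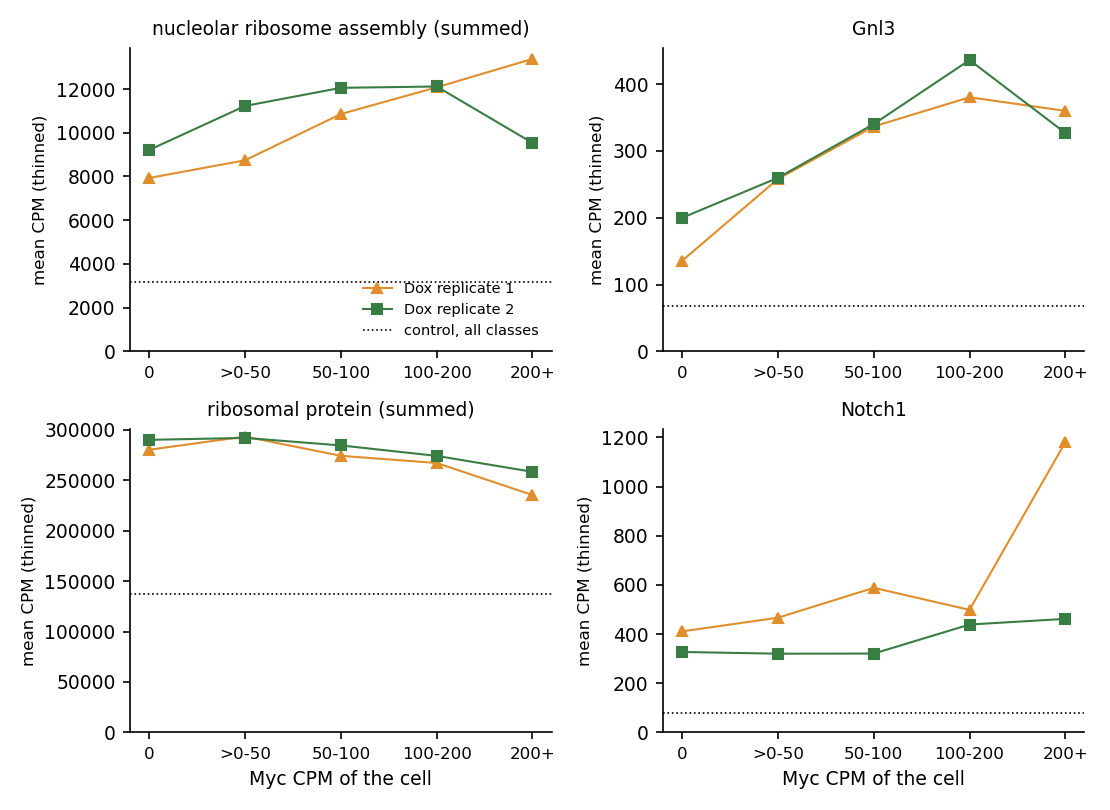
Mean CPM after thinning (vertical axes, from 0) of the nucleolar list, Gnl3, the ribosomal protein list and Notch1 in 5 steps of the cells' Myc level, for both Dox libraries, with all control epithelial cells dotted. Gnl3 climbs over the first 4 steps in both libraries, and ribosomal protein transcripts are lowest in the highest step.

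Cells between the classes were deeper than both before thinning, with median UMIs of 69243.5 in replicate 1 and 53620 in replicate 2. The part of this depth in comparisons with these cells, here and below, was not tested. Gnl3 took intermediate values in them. It was at 136, 258, 337 and 380 CPM in replicate 1 in cells with 0, up to 50, 50 to 100 and 100 to 200 CPM of Myc, and at 200, 260, 340 and 436 CPM in replicate 2. In the cells at 200 CPM or more, only 5 and 13, it was at 360 and 327 CPM. The summed nucleolar list went from 7934 over 8742, 10858 and 12079 to 13380 CPM in replicate 1. In replicate 2 it went from 9217 over 11228, 12057 and 12117 to 9538 CPM, so the highest step lay near the lowest.

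Smaller shares of other growth lists were called. Of 51 tested genes of the list of MYC-induced metabolism and protein folding 8 were higher and none was called lower, with a median log2 ratio of 0.21 (0.40 and 0.14 by library). Hspd1, the mitochondrial chaperonin, was at 1417 and 880 CPM and at 1232 and 1087 CPM (log2 ratio 0.42, SE 0.086, adjusted p 0.000372, called in 5 of 18). Tfrc, the transferrin receptor, was at 66.0 and 33.1 CPM and at 63.0 and 35.2 CPM (0.88, SE 0.24, adjusted p 0.0232, 6 of 18). Ran, the GTPase of nuclear transport, was at 825 and 547 CPM and at 672 and 608 CPM (0.35, adjusted p 0.0405, 3 of 18). Of 40 translation factors 4 were higher, with a list median of 0.093: Eif1a (0.51), Eif3a (0.43), Eif5a (0.35) and Eif2s2 (0.34), each higher in both libraries and called in 6, 4, 6 and 2 alternatives. Of 19 polyamine and one-carbon genes 2 were higher. Mat2a, which makes S-adenosylmethionine, was at 321 and 174 CPM and at 302 and 209 CPM (0.66, SE 0.14, adjusted p 0.000407, 9 of 18). Odc1, ornithine decarboxylase, was at 357 and 257 CPM and at 306 and 228 CPM (0.45, adjusted p 0.0408, 3 of 18). The metabolism list had no called gene in another thinning, without shared barcodes, or within clusters. None of 18 glycolysis genes was called. Gapdh was at 2113 and 2367 CPM and at 2233 and 2352 CPM (-0.12, adjusted p 0.621), and Ldha at 1059 and 792 CPM and at 1086 and 994 CPM (0.26, adjusted p 0.121).

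The largest rise was in Mir17hg (chr14:115042879-115046727), the host transcript of the miR-17 to miR-92 cluster. It was at 43.5 and 12.9 CPM in replicate 1 and 44.1 and 17.6 CPM in replicate 2 (log2 ratio 1.42, SE 0.30, adjusted p 0.000569, 11 of 18), and listed at 0 in the 31 control cells. It was found in 14 of 33 and 42 of 74 Myc-high cells, against 5 of 28 and 23 of 104 Myc-zero cells. The mature miRNAs were not measured. The other 11 of the 12 largest rises had log2 ratios from 0.99 to 1.42. Several are outside the nucleolar list but are known in the nucleolus, among them Diexf (1.18), Kri1 (1.11), Nifk (1.04) and the nucleolar deubiquitinase Usp36 (1.18). Zbtb21, a zinc finger protein, had 1.42, Taf5l, of a histone acetylation complex, 1.15, and Yrdc, which makes a tRNA modification, 1.03. Of these, Nifk and Yrdc were called in 10 of 18 alternatives and the others in 3 to 5. Kcnq1ot1, a long noncoding RNA of an imprinted locus that lies antisense to Kcnq1, with the use of strand in counting not stated, was at 459 and 253 CPM and at 463 and 296 CPM (0.73, SE 0.12, adjusted p 1.43e-06, 12 of 18).

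**Figure D4:**
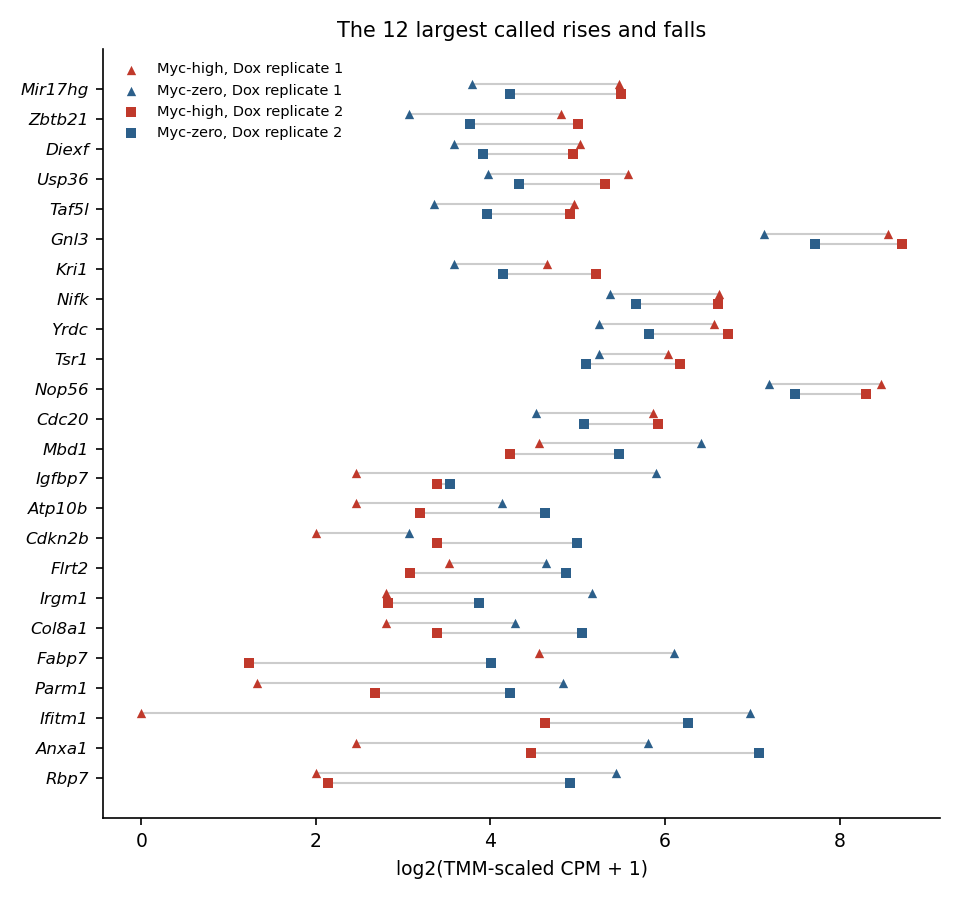
Log2 of TMM-scaled CPM plus 1 in the 4 sums for the 12 largest called rises and the 12 largest called falls, with Myc-high in red, Myc-zero in blue, Dox replicate 1 as triangles (upper) and replicate 2 as squares (lower). Red lies right of blue in both libraries for the rises and left of it for the falls. Igfbp7 differs little in replicate 2.

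Transcripts of the ribosomal proteins themselves went the other way. Of 83 tested, 74 were lower in both libraries and 2 higher in both, with a median log2 ratio of -0.15 (-0.15 and -0.16 by library), and 14 were called lower and none higher. These genes have many near-identical pseudogenes, so reads may be split between copies. Together they made up 262336 and 280313 CPM in replicate 1 and 271428 and 290105 CPM in replicate 2, a ratio of 0.936 in each. The highest Myc-zero cell held 12579 UMIs of the list after thinning in replicate 1, and 10943 in replicate 2. The highest Myc-high cells held 6782 and 7547. Medians per cell were 5361 (Myc-high) and 5514.5 (Myc-zero) UMIs in replicate 1, and 5507 and 5845 in replicate 2. How far the ratios of the sums rest on the highest Myc-zero cells was not tested. Rps24, a small subunit protein, was at 4295 and 5146 CPM and at 4804 and 5486 CPM (-0.23, SE 0.055, adjusted p 0.00641, 4 of 18). Rps21 (-0.25), Rps12 (-0.20) and Rpl41 (-0.19) were lower in both libraries and called in 4, 4 and 3 of 18. The median was below 0 in all 18 alternatives, -0.095 with total count scaling, under which none was called. None was called either in another thinning or without shared barcodes. The control level was 137616 CPM, so both Dox classes lay above it.

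Mitochondrially encoded transcripts were lower too, 7 of 13 called and 11 lower in both libraries, with a median of -0.19. mt-Co2, a cytochrome c oxidase subunit, was at 8941 and 11635 CPM and at 9521 and 10769 CPM (-0.28, SE 0.044, adjusted p 1.74e-07, 7 of 18). mt-Nd4, of complex I, was at 3821 and 5117 CPM and at 3825 and 4577 CPM (-0.34, SE 0.057, adjusted p 1.92e-06, 7 of 18). The list as a sum had ratios of 0.857 and 0.922, but 1.10 and 0.855 in cells without Mki67 or Top2a. Nuclear genes of oxidative phosphorylation had 0 of 31 called by edgeR and 3 with an unadjusted p up to 0.05, with a median of -0.11; 19 were lower in both libraries and none higher in both. The mitochondrial share is also a sign of cell quality, as is Malat1, a nuclear RNA. Malat1 was at 12685 and 16066 CPM and at 14206 and 14869 CPM (-0.20, SE 0.040, adjusted p 0.000124, 6 of 18), and at 0.015 when cells were paired within clusters. Gm42418 was at 4963 and 9216 CPM in replicate 1 but 4564 and 4651 CPM in replicate 2, and 1 Myc-zero cell held 2031 of its 5018 UMIs in replicate 1. The part of cell quality in these differences was not tested.

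**Figure D5:**
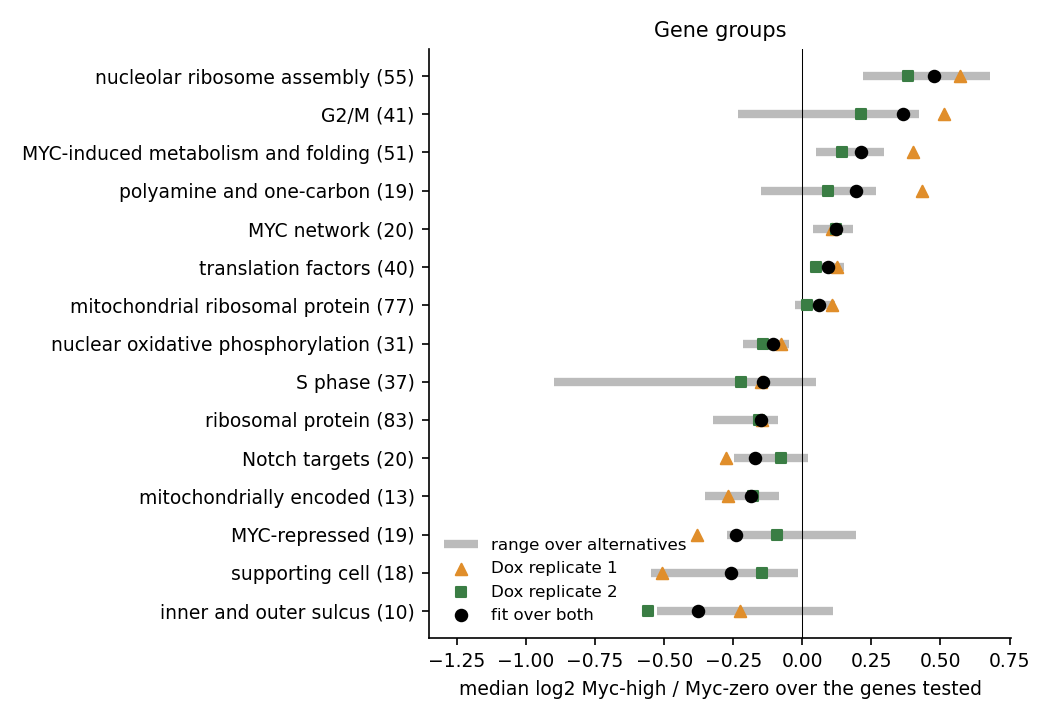
Median log2 ratio of Myc-high to Myc-zero cells over the tested genes of 15 lists (number in brackets), from the fit over both libraries (black), each library alone (triangle, square) and the range over 18 alternatives (grey). The nucleolar list stays above 0 and the ribosomal protein list below 0 throughout, while the G2/M list crosses 0.

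Of 41 G2/M genes 3 were higher, with a median of 0.36 (0.51 and 0.21). None was called with another thinning, without shared barcodes, in clear epithelial cells or without the library block. Of 37 S phase genes edgeR called 0, with 6 at an unadjusted p up to 0.05 and a median of -0.14. Cdc20, which activates the anaphase-promoting complex, was at 57.0 and 22.04 CPM and at 59.6 and 32.7 CPM (0.99, SE 0.25, adjusted p 0.0107, 7 of 17). Hmmr (0.65, adjusted p 0.0331) and Cenpe (0.72, adjusted p 0.0368), both of the mitotic spindle, were called in 7 and 4 of 17. Clspn, of the replication checkpoint, was at 21.0 and 47.8 CPM and at 29.1 and 44.8 CPM (-0.78, adjusted p 0.13). The proliferation marker Mki67 was at 246 and 239 CPM and at 192 and 176 CPM (0.09, adjusted p 0.929), and Top2a, topoisomerase II alpha, at 174 and 220 CPM and at 197 and 201 CPM (-0.15, adjusted p 0.857). After thinning, 63.6% (45.1 to 79.6%) and 59.5% (47.4 to 70.7%) of Myc-high cells had a UMI of either. Among Myc-zero cells it was 46.4% (27.5 to 66.1%) and 59.6% (49.5 to 69.2%), so the intervals overlapped in both libraries. In cells between the classes it was 65.6% and 77.0%, above the Myc-high cells of both libraries. Without thinning the shares were 78.8% and 63.5% in Myc-high and 57.1% and 68.3% in Myc-zero cells of replicates 1 and 2.

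When the Dox epithelial cells were clustered without Myc, 3 of 11 clusters had G2/M genes as the only listed markers among their leading genes. Clusters 1 and 9 had 15 each, but cluster 8, which opened with Ndufa4l2, had only 5. Cluster 8 gave 4 Myc-high and 0 Myc-zero cells in replicate 1, and 6 and 2 in replicate 2. Together the 3 clusters held 14 of 33 Myc-high and 3 of 28 Myc-zero cells in replicate 1, 42.4% (25.5 to 60.8%) and 10.7% (2.27 to 28.2%). In replicate 2 they held 20 of 74 and 14 of 104, 27.0% (17.4 to 38.6%) and 13.5% (7.56 to 21.6%). The shares were higher among Myc-high than Myc-zero cells in both libraries, with overlapping intervals. Cells between the classes were at 24.0% and 29.5%, in replicate 2 above the Myc-high cells. The summed G2/M list of replicate 2 was likewise highest at up to 50 CPM of Myc, with 4037 CPM, against 2705 CPM in Myc-zero cells and 3355 and 3031 CPM in the 2 highest steps. Replicate 1 went from 3109 CPM over 3232 and 3715 to 4207 CPM, and to 2140 CPM in the 5 cells of the highest step. Pairing cells within clusters, or leaving out cells with Mki67 or Top2a, conditions on G2/M genes themselves, so it says little of this list. The G2/M medians were then -0.12 and -0.15, and the summed ratios without Mki67 or Top2a were 1.72 in replicate 1 and 0.794 in replicate 2.

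Notch1 (chr2:26457903-26516663), a Notch receptor gene, was at 596 and 422 CPM in replicate 1 and 444 and 342 CPM in replicate 2. The log2 ratio was 0.43 (SE 0.11, adjusted p 0.017), 1.35-fold, called in 7 of 18 and of the same sign in all 18. Both Myc-high sums lay above both Myc-zero sums, though the Myc-zero value of replicate 1 lay close to the Myc-high value of replicate 2. Single cells overlapped widely. After thinning they had 3 to 51 (Myc-high) and 1 to 32 (Myc-zero) Notch1 UMIs in replicate 1, and 0 to 37 and 0 to 23 in replicate 2. The control cells were at 77.4 CPM, far below both Dox classes. In the steps of Myc, Notch1 in replicate 2 stayed at 327, 320 and 320 CPM up to 100 CPM of Myc, then was at 439 and 462 CPM. In replicate 1 it was at 411, 466, 588 and 498 CPM and at 1180 CPM in the 5 cells of the highest step. The other listed Notch genes did not follow: of 20 tested, Notch1 among them, 1 was higher and 1, Fabp7, lower, with a median of -0.17. That median was 0.020 within clusters. Sox9 was at 189 and 281 CPM and at 261 and 320 CPM (-0.40, adjusted p 0.112).

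Genes of supporting cell identity were lower where they were called. Of 18 tested supporting cell markers 3 were lower and none higher, with a median of -0.26 (-0.51 and -0.15), and 1 of 10 of the sulcus, Ptgds. The summed supporting cell list had ratios of 0.855 and 0.864, but its direction turned in replicate 1 without Mki67 or Top2a (1.29, against 0.703 in replicate 2) and within clusters (1.11, against 0.842). S100a1, a calcium-binding protein, was at 1098 and 1372 CPM and at 746 and 947 CPM (-0.33, SE 0.088, adjusted p 0.0163, 6 of 18), and at 0.066 in cells without Mki67 or Top2a. The others rested on few cells. Rbp7, a retinol-binding protein with the largest fall of all (-3.30, adjusted p 2.07e-09, 11 of 14), had 23 of its 23 UMIs from 1 Myc-zero cell in replicate 1 and 48 of 58 from 1 cell in replicate 2. Fabp7, the brain-type fatty acid binding protein (-2.02, adjusted p 0.000116, 10 of 16), was in 3 of 28 and 6 of 104 Myc-zero cells and 5 of 33 and 2 of 74 Myc-high cells. Ptgds, prostaglandin D synthase, was at 63.0 and 79.0 CPM and at 63.0 and 114 CPM (-0.69, adjusted p 0.0406, 4 of 18), and Epyc, a proteoglycan of the sulcus, at 351 and 512 CPM and at 329 and 394 CPM (-0.38, adjusted p 0.0571). Cluster 2, led by Gpx3 and Vmo1 and left unnamed, held 12.1% of Myc-high and 21.4% of Myc-zero cells in replicate 1 and 20.3% and 32.7% in replicate 2. The epithelial keratin Krt19 was at 279 and 156 CPM and at 258 and 200 CPM (0.54, adjusted p 0.0163, 4 of 18), and Krt8 at 1472 and 1319 CPM and at 1458 and 1165 CPM (0.25, adjusted p 0.0962).

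Txnip, thioredoxin-interacting protein, which limits glucose uptake, was found in 12 of 28 and 54 of 104 Myc-zero cells and 9 of 33 and 35 of 74 Myc-high cells. It was at 24.0 and 58.8 CPM and at 62.4 and 117 CPM (-0.99, SE 0.22, adjusted p 0.0013, 11 of 18). Cdkn2b, the CDK inhibitor p15, was at 3.00 and 7.35 CPM and at 9.49 and 30.7 CPM (-1.64, SE 0.43, adjusted p 0.0163, 7 of 13), with 4 Myc-zero UMIs in replicate 1. They were the 2 called of 19 genes of the MYC-repressed list, median -0.24 (-0.38 and -0.09), which reached 0.19 with Myc-high at 200 CPM. Gas1, a growth arrest gene, was at 114 and 152 CPM and at 184 and 253 CPM (-0.44, adjusted p 0.135). B2m, the light chain of MHC class I, was at 84.0 and 204 CPM and at 104 and 139 CPM (-0.74, SE 0.17, adjusted p 0.00322, 7 of 18), and of 12 class I genes it was the only one called, with 7 lower in both libraries. Mbd1, a methyl-CpG binding protein, was at 22.5 and 84.5 CPM and at 17.6 and 43.3 CPM (-1.54, adjusted p 1.76e-05, 12 of 18), and 1 cell gave 27 of its 46 Myc-zero UMIs in replicate 1. Ier3 (-0.56) and Socs3 (-0.79), immediate early and cytokine feedback genes, were called in 4 and 2 of 18.

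The largest falls were in genes of few cells. Anxa1, annexin A1, was at 4.50 and 55.1 CPM and at 21.0 and 133 CPM (-2.79, SE 0.27, adjusted p 2.72e-21, 16 of 17). It was in 2 of 33 and 5 of 74 Myc-high and 5 of 28 and 22 of 104 Myc-zero cells, and 1 cell gave 108 of the 265 Myc-zero UMIs of replicate 2. Without the highest cells the log2 ratio was -2.75. In replicate 1 Anxa1 was at 1.82 CPM in the cells with up to 50 CPM of Myc, so no gradual decline was seen there. Ifitm1, an interferon-induced membrane protein, had 0 UMIs in the Myc-high sum of replicate 1, and 32 of its 35 Myc-high UMIs in replicate 2 came from 1 cell (-2.49, 10 of 17). Parm1 (-2.25), Irgm1 (-1.69), an interferon-induced GTPase, and Flrt2 (-1.67), a cell adhesion protein, were found in 4 to 30 Myc-zero cells per library. Col8a1 (-1.72), a collagen chain, and Atp10b (-1.60), a lipid flippase, came to log2 ratios of -0.74 and -0.03 without the highest cells. Igfbp7 (-1.57), which binds insulin-like growth factors, was at 4.50 and 58.8 CPM in replicate 1 and 9.49 and 10.6 CPM in replicate 2, with 27 of 32 UMIs from 1 cell. Cib2, of the hair cell list (-1.13, 7 of 17), had 20 of 34 Myc-zero UMIs of replicate 1 from 1 cell. Rgs5 of the pericyte list (-2.03, 4 of 13) had 12 of 14.

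MYC's own partners and cofactors differed little. Of 20 tested genes of the MYC network edgeR called 0, with 1 at an unadjusted p up to 0.05 and a median of 0.12. Ruvbl1, an ATPase cofactor, was at 117 and 86.3 CPM and at 101 and 69.5 CPM (0.50, adjusted p 0.201), and Wdr5, of histone methyltransferase complexes, at 45.02 and 23.9 CPM and at 31.2 and 24.7 CPM (0.52, adjusted p 0.561). Mitochondrial ribosomal proteins had 0 of 77 called and a median of 0.059, with 5 at an unadjusted p up to 0.05. No gene was called among p53 targets (22 tested), hypoxia (16), interferon-stimulated (11), ATF4 and amino acid supply (23) or sterol and fatty acid synthesis (26), with 2, 0, 1, 6 and 2 at an unadjusted p up to 0.05. Over all genes tested, edgeR had 917 of 8873 at that level.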

How the data were processed

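The deposited matrices hold UMI counts per gene and cell, made by the authors with Cell Ranger 5.0, per the submitters' processing notes, which also list STAR, Seurat 3.2.2 and the mm10 and GRCm38 builds. The control, Dox replicate 1 and Dox replicate 2 matrices held 512, 788 and 1095 barcodes and 5436731, 20309102 and 33385927 UMIs. Cells were filtered as given above and no doublet caller was run. Each Dox member was thinned to 20000 UMIs, and UMIs were summed per library and Myc class, giving sums of 660000 and 560000 (replicate 1, Myc-high and Myc-zero) and 1480000 and 2080000 (replicate 2). The sums were tested with edgeR 4.0.16 (TMM, filterByExpr, quasi-likelihood, Benjamini-Hochberg) with library and class as terms. The fit was also run on simulated sums. These had the same dispersion for every gene, no library effect and no genes carried by single cells, so they cannot vouch for the calls in these data. The kind of quasi-likelihood fit was not set in the design: the newer fit (legacy off) was made the main one after the calls of both had been seen, and the older one is given as an alternative. The prior degrees of freedom were infinite in the main fit, so a gene's own spread between libraries hardly entered its p, and 13.8 with another thinning. Replicate numbers pair the sums because both classes of a library come from the same cells' pool. Clusters came from Leiden clustering (scanpy 1.11.5) of the Dox epithelial cells without Myc. Named were the 12 largest called rises and falls with at least 50 UMIs and the same direction in both libraries (clone names, pseudogenes, mitochondrially encoded genes, Myc and Epcam left out), up to 4 genes a list by p, and 6 fixed genes. The members and the 38 lists were chosen with earlier results of these data known. Alternatives changed thinning, depth pairing, thresholds, filters, scaling and test; 4 were added after seeing the data: shared barcodes left out, expected thinned counts, the older edgeR fit, and, as a value with no refit, each gene without the highest cell of each sum. Promoter windows and their coordinates are RefSeq's (GRCm38.p6).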

Additional observations from a re-analysis of the deposited data

How the results depend on the processing

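The fitted medians of the nucleolar, ribosomal protein, mitochondrially encoded and supporting cell lists had the same sign in all 18 refits. Summed lists were read in only 2 of the refits, and in both the supporting cell list turned in replicate 1. The counts of called genes were not stable. Genes called higher and lower, against 83 and 87, were 5 and 15 with another thinning, 21 and 56 with classes set by thinned UMIs, 14 and 16 with mitochondrial UMIs of 1 to 10%, and 8 and 7 in cells without Mki67 or Top2a. They were 10 and 8 within clusters, 13 and 17 without shared barcodes, 2 and 3 with no replicate block, and 1 and 1 with the DESeq2 Wald test. They were 0 and 2 in clear epithelial cells, 0 and 0 with Myc-high at 200 CPM, both on fewer cells, and 0 and 1 without a low-count filter, on more genes. They were 109 and 147 without thinning and 120 and 54 with total count scaling. With an unadjusted p up to 0.05, Myc included, edgeR had 321 in clear epithelial cells, 240 at 200 CPM and 969 without the filter. Other causes were not tested. Leaving out a library leaves no residual degrees of freedom and so no test.

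Of 59 called genes named, 52 kept their sign in every alternative. Signs turned within clusters for Malat1 (0.015), Hmmr (-0.13), Cenpe (-0.067) and Mki67 (-0.24). They turned in clear epithelial cells for Ier3 (0.14), Krt19 (-0.17), Epyc (0.58) and Mki67 (-0.22), and without cycling cells for Cks2 (-0.13), S100a1 (0.066) and Epyc (0.12). At 200 CPM they turned for Mki67 (-0.24), Ruvbl1 (-0.30) and Gas1 (0.17), by thinned UMIs for Top2a (0.049) and Sox9 (0.010), and with depth-paired cells for Rgs5 (0.028). Depth pairing used all 28 Myc-zero cells of replicate 1 and did not match depth there. The log2 ratio of Myc in UMIs not used for grouping was 1.83, 2.65 with Myc-high at 200 CPM, and 1.74 to 1.91 when either library was left out. Sums of 33 and 28 cells limit replicate 1, and lists with few UMIs are the least precise.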
